A study of Homo sapiens with 11 samples.

Results

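The genes described here encode laminin chains and nidogens, the linked glycoproteins that basement membranes are built on. The 9 genes were taken by name as LAMA3, LAMA4, LAMA5, LAMB1, LAMB2, LAMB3, LAMC1, NID1 and NID2, and 14 of the 42405 probes on the array carry a RefSeq accession that names a gene of the family. LAMA4 had 4 probes, LAMA3 and LAMB2 had 2 each and the other genes had 1. The brightest LAMA3 probe is named through a coding RefSeq transcript, and the second LAMA3 probe through a non-coding one. For each gene the probe with the highest mean over all replicates stands for the gene, and the other probes are given beside it.

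A laminin is a trimer of an alpha, a beta and a gamma chain that is assembled inside the cell, secreted, and polymerised on the cell surface, where integrins and dystroglycan bind it. Nidogens tie the laminin network to the network of type IV collagen. In epithelia such as those of the lung, LAMA3 and LAMB3 are chains of the laminin of the anchoring structures that integrin alpha6 beta4 holds, whereas LAMA5 and LAMC1 with LAMB1 or LAMB2 form laminins common to most epithelial basement membranes, and LAMA4 is known from vessels and other mesenchymal tissues.

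The arrays measured stably transfected cells of 2 established human lung adenocarcinoma lines, A549 and HCC827, to see which transcripts follow overexpression of the ubiquitin ligase TRIM58. Mock cells carried the empty vector, and cells labelled TRIM58-WT carried FLAG-tagged wild-type TRIM58 in the retroviral vector pMXs-Neo, and all had been selected with the drug G418. A549 had 3 mock replicates on 4 arrays and 3 replicates labelled TRIM58-WT, and HCC827 had 2 replicates of each kind. Mock arrays 1-1 and 1-2 carry the same mock number in their labels and were averaged as a single replicate. According to the study's text the A549 transfectants were clones and those of HCC827 were crude, uncloned transfectants. The labels number the cells without saying how separately they were grown, so the p-values measure the spread between these samples only. Because RNA was taken from whole cultures, fewer cells that express a gene and less RNA in each cell cannot be told apart.

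Levels are log2 signals relative to the 75th percentile of the same array, so 0 is the 75th percentile and a step of 1 is 2-fold. They compare 1 probe across arrays and do not rank the genes by abundance. The 75th percentile lay at signals of 56.6 to 125, 40.1% to 50% of probes were well above background, and no spot was saturated. No array labelled TRIM58-WT, in A549 or in HCC827, had a TRIM58 probe well above background, and the single array that did was A549 mock array 3, at -0.71 against -5.33 to -4.63 on the other A549 arrays. Where this probe lies relative to the coding sequence that the vector carried is not given in the sources used here, so it does not check the labels, and the groups are named as labelled throughout. A549 arrays labelled TRIM58-WT 2 and 3 differed by an SD of 0.24 over probes, less than the 0.29 between mock arrays 1-1 and 1-2. TRIM58-WT 1 and 2 differed by 0.82 and mock 2 and 3 by 0.82. The pair at 0.24 shared a slide and is in this unlike the others, as the arrays of each other pair lay on different slides. For LAMA3, LAMB3 and NID2 the A549 change is therefore also given with TRIM58-WT replicates 2 and 3 averaged and without mock replicate 3 or TRIM58-WT replicate 1. Keratin genes KRT7, KRT8 and KRT18 and the cadherin gene CDH1 were well above background on all 11 arrays, but KRT19 was so on 0 of 3 and EPCAM on 1 of 3 A549 arrays labelled TRIM58-WT. In A549 KRT19, EPCAM and KRT8 (-1.37, adjusted p = 0.0261 by limma) were called lower, 3 of 6 epithelial markers beside 6.92% of all probes. CDH1 changed by -2.33 (adjusted p = 0.0716 by limma), KRT18 by -0.65 and KRT7 by 0.25, none of them called. The median of the 6 was -1.85, and their part in the laminin and nidogen values was not tested. The fibroblast collagen gene COL1A1 was well above background on 3 of 3 A549 arrays labelled TRIM58-WT and 0 of 4 mock arrays, and its part in the laminin and nidogen values was not tested. Of 8 fibroblast markers no other cleared background throughout a group, with the summed signal of the list at 0.377 to 1.31 times the 75th percentile on A549 mock arrays and 0.631 to 1.97 on those labelled TRIM58-WT, and 0 of 5 endothelial markers cleared it throughout any group. Of the fibroblast list, LUM was well above background on 3 of 4 A549 mock arrays and 0 of 3 labelled TRIM58-WT, at least 2.36-fold lower, and was not tested. Among 4 leukocyte markers, CD14 was well above background on 4 of 4 A549 mock arrays and 1 of 3 labelled TRIM58-WT, an 8.32-fold lower signal (adjusted p = 0.00154 by limma), and the summed signal of that list was 1.86 to 2.23 against 0.426 to 0.840 times the 75th percentile. The part of either gene in the laminin and nidogen values was not tested. The summed signal of 6 epithelial markers was 1508 to 2303 on A549 mock arrays and 1095 to 1720 on those labelled TRIM58-WT.

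The promoters of LAMA3, LAMB3 and NID2 are shown first, since LAMB3 and NID2 carry the changes described below and LAMA3 encodes the chain that pairs with LAMB3. Each run is 300 bases, from 250 bases before to 50 after a RefSeq start in GRCh38.p14, written 5′ to 3′ on the strand of the gene, and capitals mark matches to the AP-1 motif TGANTCA or the E2-box CACCTG on either strand. The LAMA3 window is chr18:23872770-23873069 on the plus strand, the LAMB3 window is chr1:209651325-209651624 on the minus strand, and the NID2 window is chr14:52069010-52069309 on the minus strand.
LAMA3: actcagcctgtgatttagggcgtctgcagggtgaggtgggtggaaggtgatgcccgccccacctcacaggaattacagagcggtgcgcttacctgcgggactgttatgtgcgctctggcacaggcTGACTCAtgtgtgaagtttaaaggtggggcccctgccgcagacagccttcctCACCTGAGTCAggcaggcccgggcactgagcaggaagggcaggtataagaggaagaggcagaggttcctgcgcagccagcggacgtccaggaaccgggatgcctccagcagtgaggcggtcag
LAMB3: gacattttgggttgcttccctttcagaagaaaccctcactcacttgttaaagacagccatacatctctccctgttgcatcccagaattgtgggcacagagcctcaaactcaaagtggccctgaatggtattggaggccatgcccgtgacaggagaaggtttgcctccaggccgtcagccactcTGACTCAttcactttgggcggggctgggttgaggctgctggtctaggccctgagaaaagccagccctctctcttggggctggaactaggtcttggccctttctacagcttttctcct
NID2: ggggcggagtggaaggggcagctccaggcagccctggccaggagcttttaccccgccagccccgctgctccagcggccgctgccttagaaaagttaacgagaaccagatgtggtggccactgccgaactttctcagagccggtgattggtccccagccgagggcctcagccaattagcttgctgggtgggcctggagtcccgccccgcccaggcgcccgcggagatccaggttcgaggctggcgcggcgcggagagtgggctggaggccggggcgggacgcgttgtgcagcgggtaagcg
The LAMA3 window held 2 AP-1 matches, beginning 125 and 69 bases before the start, and 1 E2-box that overlaps the AP-1 match nearer the start. The LAMB3 window shown held 1 AP-1 match, 67 bases before its start. It was chosen among the 3 RefSeq starts of LAMB3 after the matches were seen, because it holds this match, and the windows of the other starts held no AP-1 match, an E2-box in 1 of them, and 10 and 11 CpG pairs. None of the other 7 genes had an AP-1 match, and an E2-box was found besides only in LAMA5. Among all 35116 promoter windows of this length in the RefSeq table, 7.71% held the AP-1 motif, 20.6% the E2-box and 45.0% the GC box GGGCGG. The NID2 window held neither of the first motifs, 4 GC boxes and 25 CpG pairs, against 3 CpG pairs in the LAMB3 window shown, 13 in that of LAMA3 and a median of 14 over all windows. These matches describe letters in the windows, and no binding of a factor was measured here.

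NID2, which encodes nidogen-2, showed the largest change among the genes described here in A549. Its level was 3.43 and 3.61 on mock arrays 1-1 and 1-2, 3.67 on mock array 2 and 2.57 on mock array 3, against -2.12, -0.18 and -0.16 on the 3 arrays labelled TRIM58-WT. The groups did not overlap, every one of these 7 arrays was well above background for the probe, and among arrays labelled TRIM58-WT the first was clearly the lowest. The mean fell by 4.07 on the log2 scale (SE 0.60, 95% confidence interval -5.51 to -2.64), a 16.8-fold lower signal, with an adjusted p of 0.0130 by limma. It was -4.41 without mock replicate 3 (adjusted p = 0.0137 by limma), -3.42 without TRIM58-WT replicate 1 (adjusted p = 0.00947) and -4.40 with TRIM58-WT replicates 2 and 3 averaged (adjusted p = 0.0428). The call was lost without mock replicate 1 (adjusted p = 0.0735 by limma) and without mock replicate 2 (adjusted p = 0.0633). Within the slide that held mock 1-1, mock 2 and TRIM58-WT 1 the change was -5.67, and within the other slide it was -3.26. NID1, which encodes the other nidogen, stayed below that level on all 11 arrays, at -5.45 to -3.40 in A549 and -5.54 to -5.13 in HCC827, and was not tested.

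LAMB3, the beta chain of the epithelial anchoring laminin, was also lower in A549 cells labelled TRIM58-WT. The levels were 4.76, 4.75 and 4.81 on mock arrays 1-1, 1-2 and 2 and 3.68 on mock array 3, against 2.86, 2.51 and 2.55 on the arrays labelled TRIM58-WT. Mock array 3 was the lowest of its group, yet it lay above every array labelled TRIM58-WT. The mean fell by 1.78 on the log2 scale (SE 0.33, 95% confidence interval -2.58 to -0.97), 3.43-fold, with an adjusted p of 0.0272 by limma. The change was -1.92 within the first slide and -1.69 within the second. It was -2.15 without mock replicate 3 (adjusted p = 0.00277 by limma) and -1.89 without TRIM58-WT replicate 1 (adjusted p = 0.0398). The call was lost on leaving out mock replicate 1 (adjusted p = 0.125 by limma), mock replicate 2 (0.106), TRIM58-WT replicate 2 (0.110) or TRIM58-WT replicate 3 (0.114), and on averaging the latter 2 (-1.72, adjusted p = 0.111).

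Of the 7 genes tested in A549, 2 were called at an adjusted p under 0.05 and a change of at least 2-fold, both of them lower, where 6.92% of all 16924 probes tested were called. The median change over the 7 genes was -0.40, and it was 0.059 over all probes. The groups did not overlap for 3 of the 7 genes, NID2, LAMB3 and LAMB1, beside 31% of all probes.

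**Figure D1:**
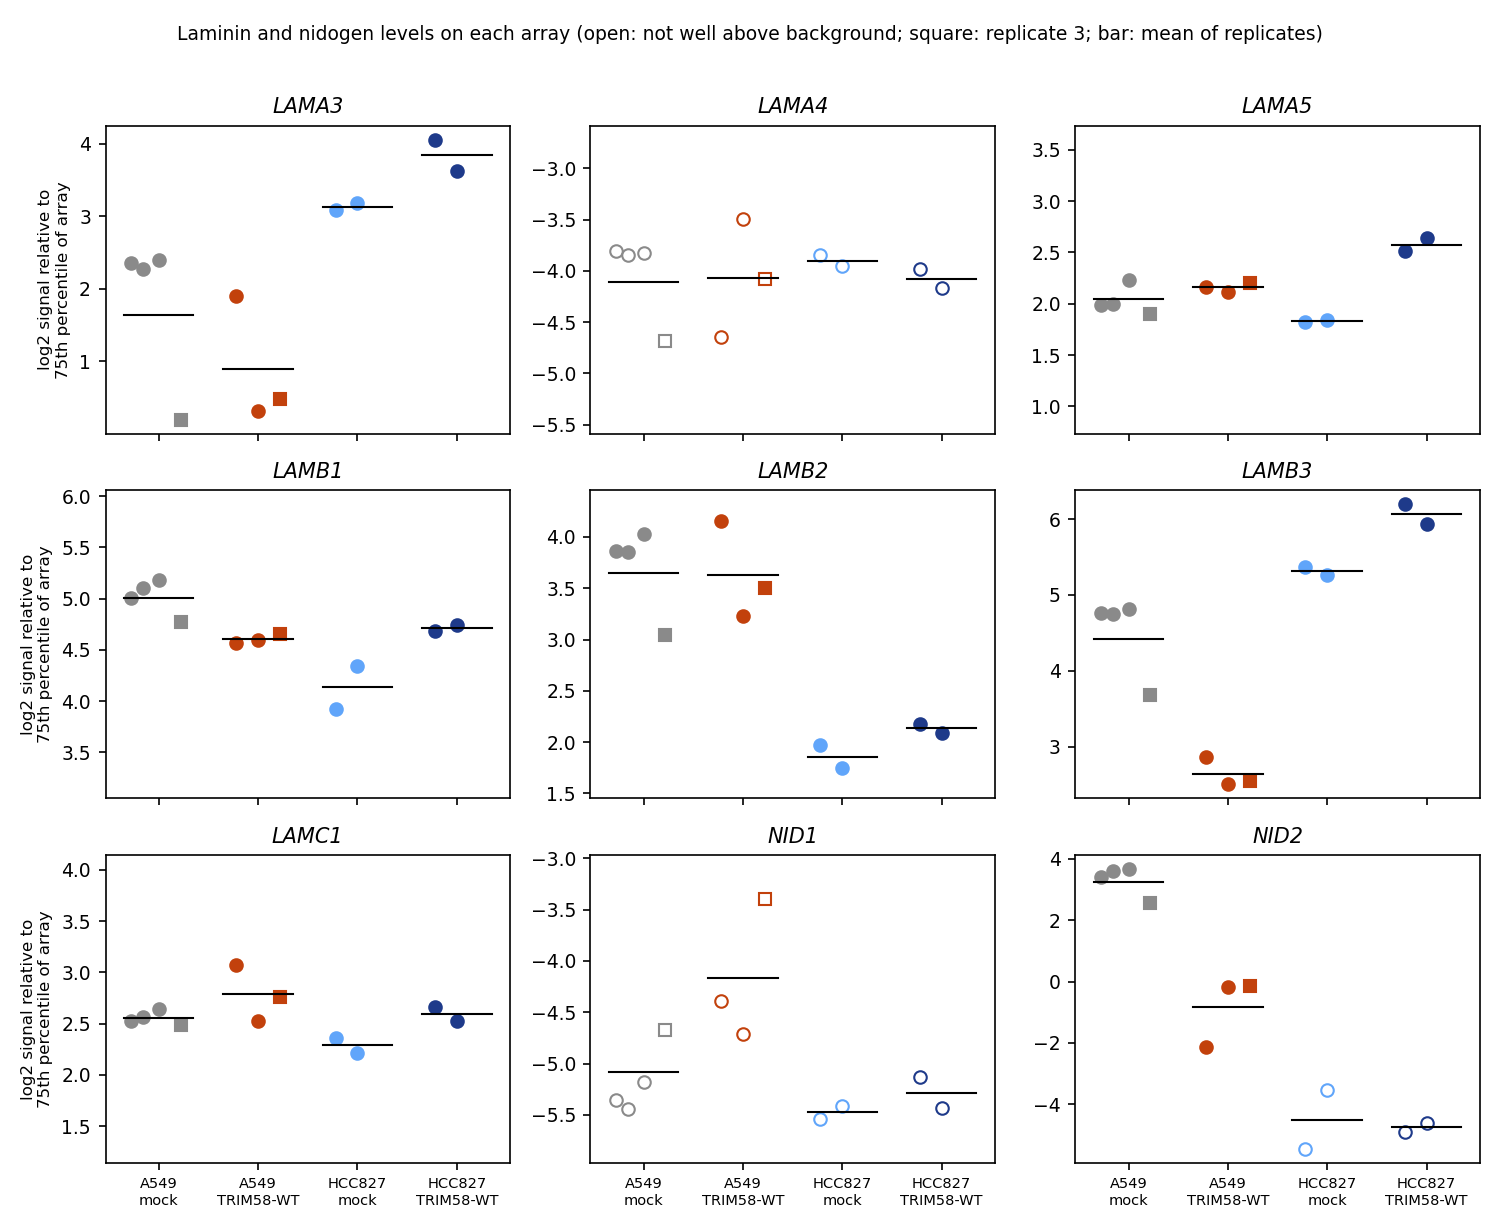
Level of each gene on each array as log2 signal relative to the 75th percentile of the array, for the 4 groups named on the horizontal axis, with filled points for arrays well above background, open points for the rest, squares for replicate 3 and bars for group means. LAMB3 and NID2 are lower on all 3 A549 arrays labelled TRIM58-WT than on all 4 mock arrays, and LAMA4 and NID1 have open points only.

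The other laminin chains did not pass the test in A549. LAMA3, the alpha chain that pairs with LAMB3, was at 2.36, 2.27 and 2.40 on mock arrays 1-1, 1-2 and 2 and at 0.19 on mock array 3, against 1.90, 0.31 and 0.48 on arrays labelled TRIM58-WT 1, 2 and 3. Its arrays thus fell into high and low values within both groups, with mock 3 beside TRIM58-WT 2 and 3 at the low end. The change was -0.74 (SE 0.71, 95% confidence interval -2.44 to 0.96, adjusted p = 0.574 by limma). It was -1.46 without mock replicate 3 (adjusted p = 0.126 by limma), -1.24 without TRIM58-WT replicate 1 (adjusted p = 0.261), -0.36 without mock replicate 2 (adjusted p = 0.909) and -0.49 with TRIM58-WT replicates 2 and 3 averaged (adjusted p = 0.832). The size of the change thus depended on single replicates, and it was called in none of these fits. A second LAMA3 probe lay below the 75th percentile on all A549 arrays and was higher on all 3 arrays labelled TRIM58-WT, at -1.33 to -0.96 against -1.94 to -1.48, with a change of 0.57 (adjusted p = 0.124 by limma). The probes of LAMA3 therefore differed in sign, and neither was called. As the second is named through a non-coding transcript, the probes need not read the same RNA.

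LAMB1, the beta chain shared by many laminins, was at 5.0, 5.10, 5.18 and 4.78 on the mock arrays and at 4.57, 4.60 and 4.65 on the arrays labelled TRIM58-WT. The groups did not overlap, but the change of -0.40 (SE 0.17, 95% confidence interval -0.80 to 0.0088) had an adjusted p of 0.207 by limma and was under 2-fold. LAMB2, the beta chain that can take the place of LAMB1, was at 3.87, 3.85 and 4.03 on mock arrays 1-1, 1-2 and 2, at 3.04 on mock array 3 and at 4.16, 3.23 and 3.50 on arrays labelled TRIM58-WT. The same 3 arrays as for LAMA3 were lowest, mock 3 and TRIM58-WT 2 and 3, but TRIM58-WT 1 was the highest array for LAMB2 and lay below mock 1-1, 1-2 and 2 for LAMA3. The difference of the means was -0.015 (95% confidence interval -0.86 to 0.83, adjusted p = 0.987 by limma), with the sign changing under other settings. Its second probe gave 0.089 (adjusted p = 0.844 by limma).

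LAMA5, the alpha chain of the most widespread epithelial laminins, was at 1.99, 2.00, 2.24 and 1.90 on the A549 mock arrays and at 2.16, 2.11 and 2.20 on those labelled TRIM58-WT. These groups overlapped, and the difference was 0.12 (95% confidence interval -0.27 to 0.50, adjusted p = 0.711 by limma). LAMC1, the gamma chain of most laminins, was at 2.52, 2.56, 2.64 and 2.48 on the mock arrays and at 3.07, 2.53 and 2.76 on the others, a difference of 0.23 (95% confidence interval -0.23 to 0.69, adjusted p = 0.509 by limma). The signs of both were positive with the 75th percentile and negative with the median of each array subtracted, a scaling that moved the median over all probes from 0.059 to -0.31, and that of LAMA5 was also negative with normexp background correction. LAMA4 was not tested, because none of its 4 probes cleared background throughout any group. On the first A549 array labelled TRIM58-WT 2 of these probes were well above background, at -1.97 and -2.21, and no other array passed for any LAMA4 probe.

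In HCC827 none of the 6 genes tested was called, though every one was higher on both arrays labelled TRIM58-WT than on both mock arrays. LAMB3 was at 5.37 and 5.27 on the mock arrays and at 6.19 and 5.93 on the arrays labelled TRIM58-WT, a difference of 0.74 (SE 0.16, 95% confidence interval 0.32 to 1.16, adjusted p = 0.119 by limma). LAMA5 was at 1.83 and 1.84 against 2.51 and 2.64, a difference of 0.74 (95% confidence interval 0.39 to 1.1, adjusted p = 0.0939 by limma). LAMA3 stood at 3.08 and 3.17 against 4.05 and 3.63, a difference of 0.71 (95% confidence interval 0.20 to 1.23, adjusted p = 0.162 by limma). These were the widest gaps, and none reached 2-fold. The second LAMA3 probe gave -0.18 with overlapping groups (adjusted p = 0.637 by limma).

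LAMB1 was at 3.93 and 4.34 on the HCC827 mock arrays and at 4.68 and 4.75 on those labelled TRIM58-WT, a difference of 0.58 (95% confidence interval 0.077 to 1.08, adjusted p = 0.207 by limma). LAMC1 was at 2.36 and 2.21 against 2.66 and 2.53, a difference of 0.31 (95% confidence interval -0.074 to 0.68, adjusted p = 0.315 by limma). LAMB2 was at 1.97 and 1.75 against 2.18 and 2.09, a difference of 0.27 (95% confidence interval -0.12 to 0.67, adjusted p = 0.366 by limma). The median over the 6 genes was 0.65, beside 0.0091 over all probes. With 2 replicates a group, 56.6% of all probes had groups that did not overlap and 0.884% of 19563 were called. An unadjusted p under 0.05 was reached by 4 of the 6 genes with limma, where 20.3% of all probes reached it, and by 0 with the methods' t-test. NID2 and NID1 cleared background on 0 of the 4 HCC827 arrays, and NID2 stood at -5.45 and -3.55 on the mock arrays and at -4.91 and -4.60 on the others.

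The change was then set between the lines by a contrast of all 4 groups. LAMB3 was the only gene of the 7 tested that was called by this contrast, falling by 1.78 in A549 beside a difference of 0.74 in HCC827. The change in HCC827 minus that in A549 was 2.52 (SE 0.47, 95% confidence interval 1.44 to 3.60, adjusted p = 0.0252 by limma), where 3.86% of 20642 probes were called by this contrast. It was 2.89 without A549 mock replicate 3 (adjusted p = 0.000679 by limma) and 2.63 without A549 TRIM58-WT replicate 1 (adjusted p = 0.0252), and the call was lost on leaving out any other replicate of either line. For NID2 the contrast was 3.82 (adjusted p = 0.0864 by limma), but the HCC827 side lay at background, so it restates the A549 change. LAMB1 had a contrast of 0.98 (95% confidence interval 0.37 to 1.58, adjusted p = 0.0885 by limma). The remaining contrasts were 1.45 for LAMA3 (95% confidence interval -0.82 to 3.73), 0.63 for LAMA5 (0.12 to 1.14), 0.29 for LAMB2 (-0.84 to 1.42) and 0.074 for LAMC1 (-0.54 to 0.69), with adjusted p of 0.175 to 0.914 by limma. The second LAMA3 probe had the opposite sign, at -0.74 (-1.43 to -0.056, adjusted p = 0.233 by limma), and was not called. The second LAMB2 probe gave 0.36 (adjusted p = 0.598 by limma).

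**Figure D2:**
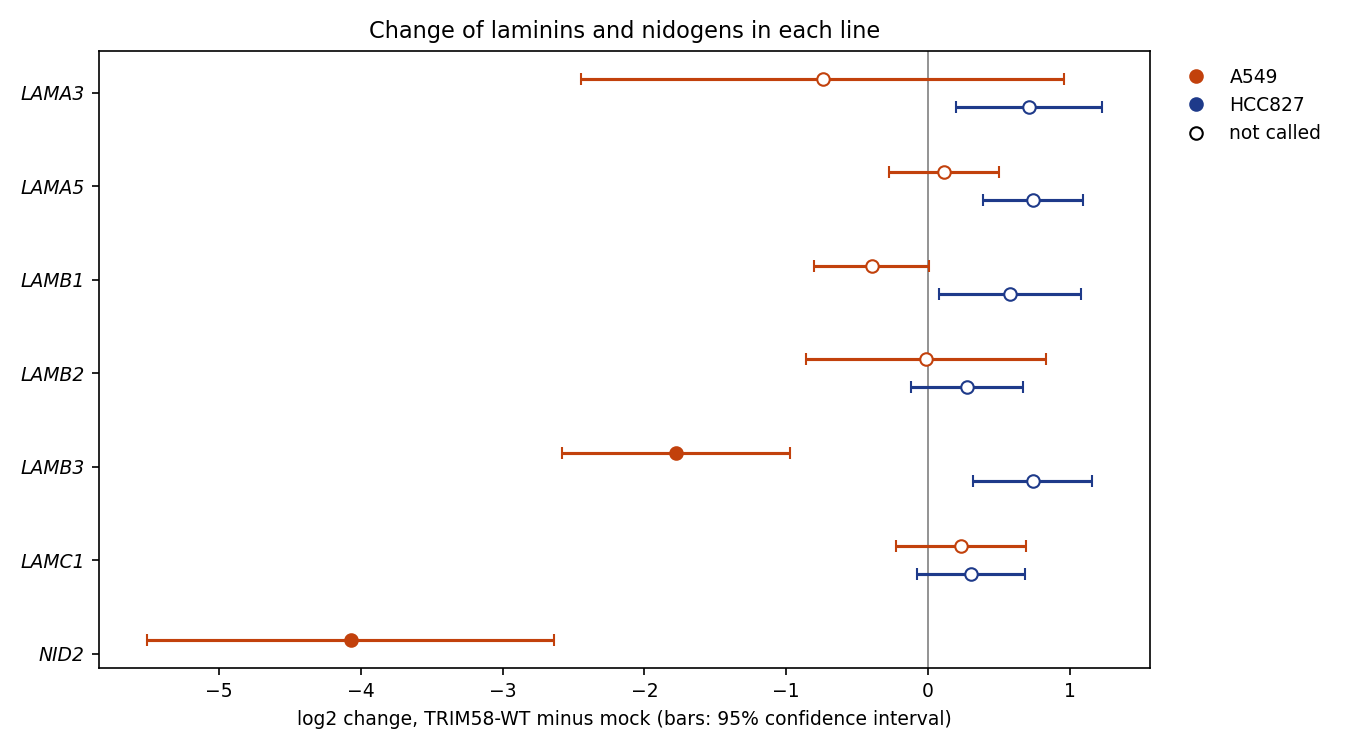
Change of each tested gene between cells labelled TRIM58-WT and mock cells on the log2 scale, with 95% confidence intervals, for A549 in orange and HCC827 in blue, and filled points where the change was called. LAMB3 lies at -1.78 in A549 and at 0.74 in HCC827, and NID2 was tested in A549 only, at -4.07.

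The mock cells of the lines also differed from each other. NID2 was at 2.57 to 3.67 on the A549 mock arrays and not above background in HCC827 mock cells, at least 89.7-fold lower when the HCC827 arrays are set at their detection level or the signal of the probe where that is higher (adjusted p = 6.08e-05 by limma). LAMB2 was 3.45-fold lower in HCC827 mock cells, a log2 difference of -1.79 (95% confidence interval -2.58 to -0.99, adjusted p = 0.00357 by limma), and its second probe gave -2.04 (adjusted p = 0.000143). On the slide that held arrays of both lines the differences were -8.05 for NID2 and -2.09 for LAMB2. LAMB1 was lower in HCC827 as well, by a log2 difference of -0.87 (adjusted p = 0.00560 by limma) that stayed under 2-fold. LAMB3 and LAMA3 pointed the other way, at 0.90 (95% confidence interval 0.15 to 1.66, adjusted p = 0.0561 by limma) and 1.49 (-0.11 to 3.10, adjusted p = 0.120). The second LAMA3 probe was called higher in HCC827, at 1.53 (adjusted p = 0.000540 by limma). Counting genes by their brightest probe, 2 of 7 were called, beside 30.1% of the 19505 probes tested. The intervals for LAMA5 (-0.56 to 0.14) and LAMC1 (-0.70 to 0.16) spanned 0.

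Set out over the 4 groups, LAMB3 ran from HCC827 labelled TRIM58-WT (mean 6.06) through HCC827 mock (5.32) and A549 mock (4.42) to A549 labelled TRIM58-WT (2.64), with no overlap between neighbours, although only the lowest step was called. LAMB2 had the 2 A549 groups on top (means 3.65 and 3.63), overlapping each other, then HCC827 labelled TRIM58-WT (2.13) and HCC827 mock (1.86). LAMB1 was highest in A549 mock (5.0) and lowest in HCC827 mock (4.13), with the groups labelled TRIM58-WT between them at 4.71 in HCC827 and 4.61 in A549. For LAMC1 the means spanned 2.29 to 2.79, and the upper 3 groups overlapped each other, while HCC827 mock lay below them without overlap.

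By the root-mean-square difference of centred levels over the 10 replicates, among 16624 other probes, the genes most like LAMB3 were HBEGF, a growth factor that binds the EGF receptor (difference 0.22), MSMO1, an enzyme of cholesterol synthesis (0.26), and OAF (0.27). NID2 had less close neighbours, namely RBFOX3, a neuronal splicing factor (0.76), SOX17, an endodermal transcription factor (0.82), and ASB4 (0.86). The changes of these 6 genes in A549 ranged from -5.55 for RBFOX3 to -1.43 for OAF, and from -0.33 to 0.81 in HCC827. This is a description of likeness over the same arrays.

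Other genes of the basement membrane were taken from a list of 42, of which 24 were tested in A549. Of these 5 were called by their brightest probes, 2 higher and 3 lower, beside 6.92% of all probes tested. The median change of the 24 was 0.099. FBLN1, also on the list, was not called by its brightest probe, with a change of 1.78 (adjusted p = 0.0738 by limma). Its other probes gave 2.38, which was called (adjusted p = 0.0108 by limma), and 1.86, which was not (adjusted p = 0.0669). Of the integrin chains known to bind the laminin of LAMA3 and LAMB3, ITGB4 and ITGA6 fell in A549, while ITGA3 changed by -0.36 (adjusted p = 0.254 by limma) and ITGB1 by 0.34 (adjusted p = 0.449) and were not called. ITGB4 was at 5.50, 5.29, 5.56 and 5.61 on the mock arrays and at 2.86, 2.71 and 2.86 on the arrays labelled TRIM58-WT, a change of -2.71 (SE 0.15, adjusted p = 0.000643 by limma) that was called on leaving out any A549 replicate. ITGA6, its partner, changed by -1.23 (SE 0.24, adjusted p = 0.0303 by limma), and its second probe gave -1.33 without being called (adjusted p = 0.0590). NTN4, a laminin-related netrin that loosens laminin networks, changed by -1.84 (SE 0.27, adjusted p = 0.0133 by limma). All 3 also differed between the lines, with a contrast of 3.78 for ITGB4 (adjusted p = 0.000194 by limma), 1.79 for ITGA6 (adjusted p = 0.0296) and 2.51 for NTN4 (adjusted p = 0.0127), although the second ITGA6 probe gave 1.91 (adjusted p = 0.0738) and was not called.

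Of 5 chains of type IV collagen tested in A549, whose network nidogens join to laminin, COL4A1 and COL4A2 were called and were higher. COL4A1 was at 0.088, -0.068, 0.17 and 1.36 on the A549 mock arrays and at 3.14, 3.28 and 3.57 on those labelled TRIM58-WT, a change of 2.82 (SE 0.38, adjusted p = 0.0104 by limma). COL4A2 was at 4.78, 4.66, 4.85 and 6.27 on the mock arrays and at 6.99, 7.56 and 7.71 on the others, a change of 2.14 (SE 0.45, adjusted p = 0.0371 by limma). The remaining chains were not called, with changes of -3.46 for COL4A4 (adjusted p = 0.0743 by limma), -0.82 for COL4A5 (adjusted p = 0.474) and 0.73 for COL4A6 (adjusted p = 0.512). Mock 3 was thus the highest mock array for both collagens and the lowest for NID2 and LAMB3. The calls of COL4A2, ITGA6 and NTN4 were lost without mock replicate 1 or 2 or TRIM58-WT replicate 2 or 3, and that of COL4A1 without mock replicate 1 or 2 or TRIM58-WT replicate 3. When the replicates labelled TRIM58-WT 2 and 3 were counted as 1, a setting added for these genes after the data were seen, ITGB4 was called (adjusted p = 0.00788 by limma) and the other 4 were not (adjusted p = 0.0523 to 0.137).

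In HCC827 0 of 27 related genes tested were called by limma, with 18 at an unadjusted p under 0.05, beside the 20.3% of all probes given above, and a median difference of 0.47. Between the mock cells 21 of 29 were called, 8 higher and 13 lower in HCC827, beside 30.1% of all probes tested. All 5 type IV collagen chains tested were lower in HCC827, while the laminin chains LAMA2 and LAMC3 were higher. LAMC3, not well above background in A549 mock cells, was at least 14.9-fold higher in HCC827 (adjusted p = 7.13e-06 by limma).

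**Figure D3:**
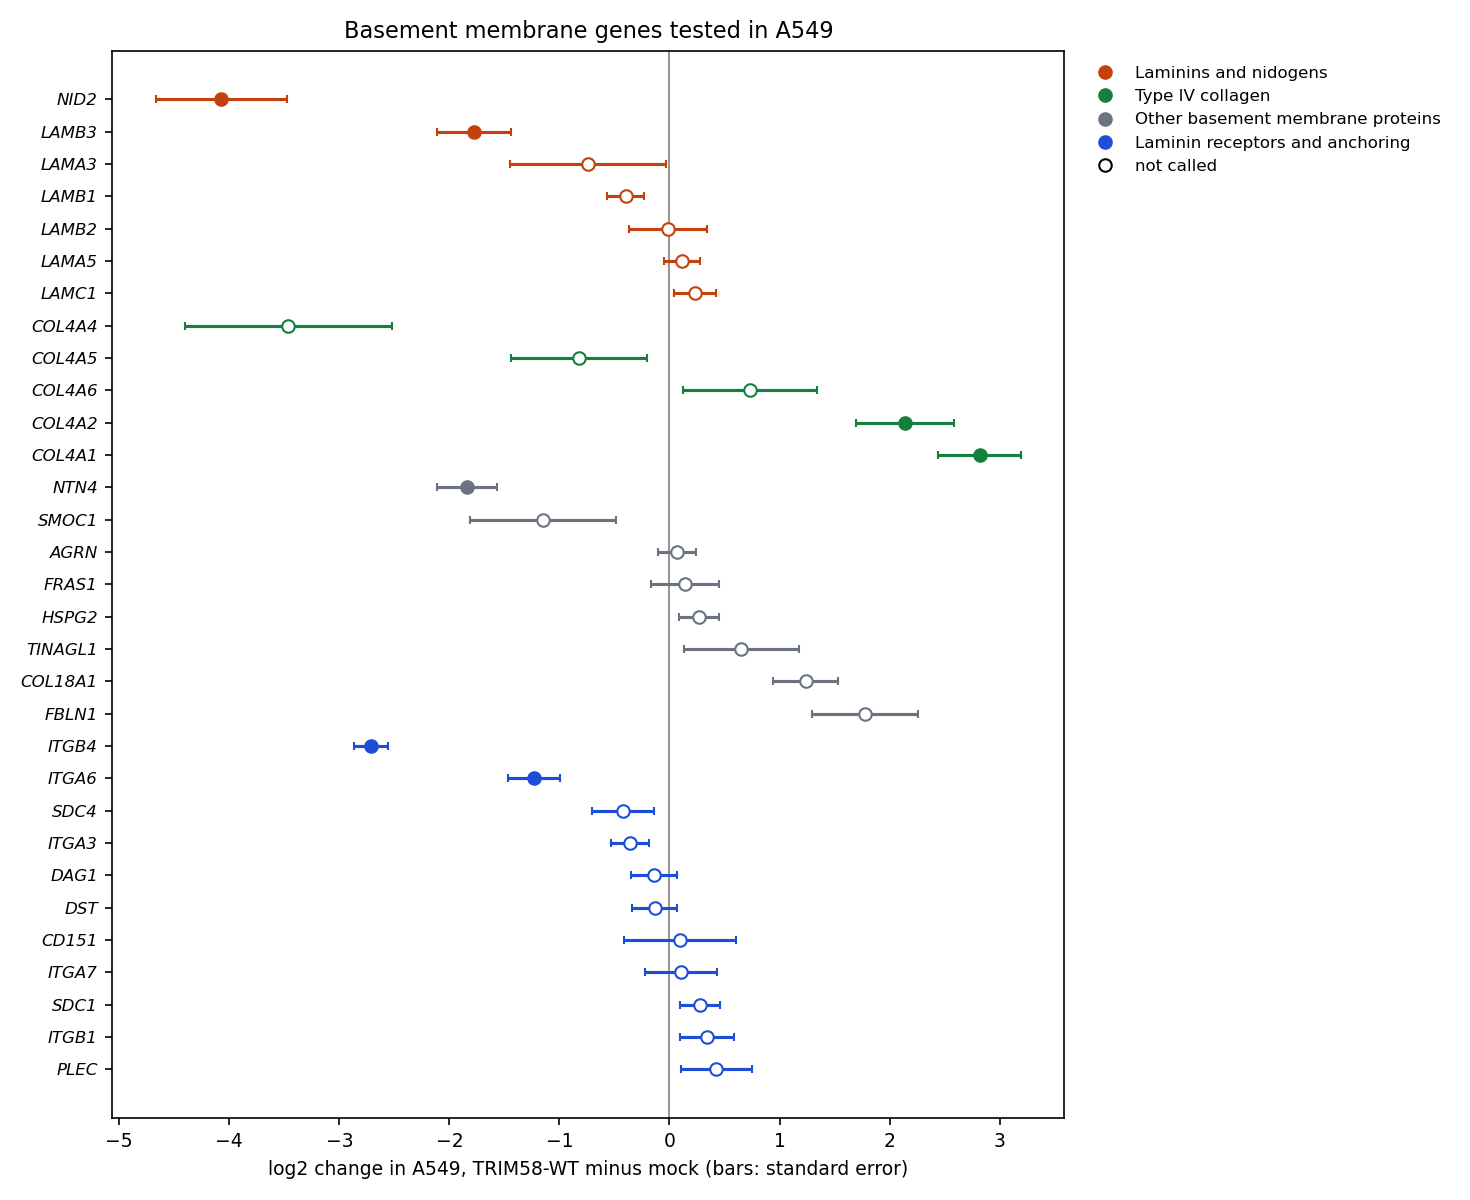
Change in A549, cells labelled TRIM58-WT minus mock cells on the log2 scale with standard errors, of the laminins and nidogens and of the related basement membrane genes that were tested, coloured by group and filled where called. NID2, LAMB3, NTN4, ITGB4 and ITGA6 are called to the left of 0, and COL4A1 and COL4A2 to the right.

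**Figure D4:**
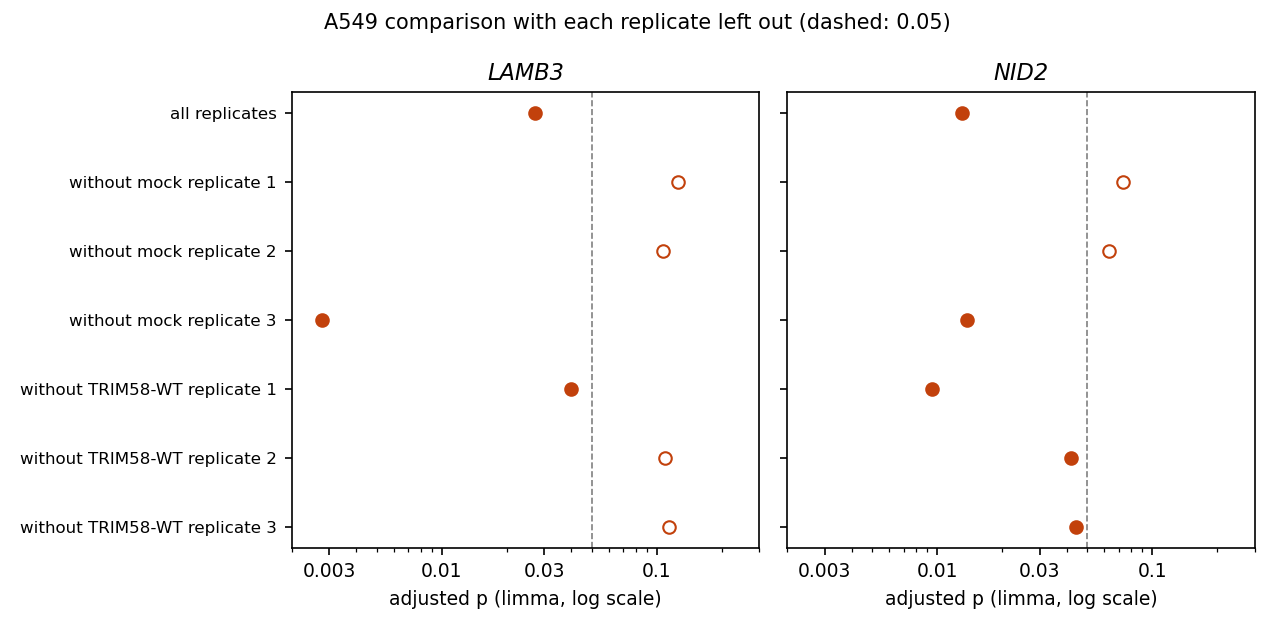
Adjusted p of LAMB3 and NID2 in the A549 comparison (log axis) with all replicates and with each replicate left out, the dashed line marking 0.05 and filled points lying under it. LAMB3 is under the line in 2 of the 6 fits that leave out a replicate and NID2 in 4.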

How the data were processed

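RNA of 10 cell samples was labelled with Cy3 and hybridised to 11 Agilent human arrays in 1 colour. The authors extracted spot signals with Agilent Feature Extraction 11.5.1.1 per the file headers (10.7 per the submitters' processing notes), and the intensity deposited for each spot is the processed signal, background-subtracted and not scaled between arrays. The deposited log2 table of the authors was used as an alternative only.

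Control and outlier spots were dropped, replicate spots were averaged, and log2 values were set relative to the 75th percentile of their array. A probe entered a test when all arrays of 1 or more of the groups compared gave it as well above background, and tests used limma 3.58.1 (lmFit, eBayes) in R 4.3.3, with Benjamini-Hochberg adjustment over all probes tested. A call needed an adjusted p under 0.05 and 2-fold, or the adjusted p alone for the contrast of the lines. A549 and HCC827 were fitted separately, and the contrast and the mock comparison used all 10 replicates. Gene symbols came from a RefSeq table (GRCh38.p14) through the accession of 28302 probes, of which 27241 were named. The number of arrays limits the precision. All 9 genes are named, with every related gene called in a line by its brightest probe, and the 3 most alike genes of each called gene. FBLN1 is named besides, because another of its probes was called. A gene of the related list is not reported here and was left out of its counts. The genes and lists were chosen with earlier results of these data known. The fits were checked on simulated data. Figures used Python 3.11.15 and matplotlib 3.10.9.

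Alternatives were median and quantile scaling, normexp with an offset of 50, other filters on dim probes, the authors' table, replicate and slide blocks, the methods' t-test, both lines in 1 fit, separate mock arrays, averaged TRIM58-WT replicates 2 and 3, and each replicate left out.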

Additional observations from a re-analysis of the deposited data

Results flagged for a closer look

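The change differed between A549 and HCC827 by a test of the difference itself for LAMB3 and for 3 related genes. The contrast, the change in HCC827 minus that in A549 on the log2 scale, was 2.52 for LAMB3, 3.78 for ITGB4, 2.51 for NTN4 and 1.79 for ITGA6. LAMB3, ITGB4 and ITGA6 encode a chain of the epithelial anchoring laminin and both chains of an integrin that binds it. LAMA3 of the same laminin was not called, at 1.45 (adjusted p = 0.483 by limma) and -0.74 by its second probe. Nor were the chains of another integrin that binds it, ITGA3 at 1.04 (adjusted p = 0.0700 by limma) and ITGB1 at 0.10 (adjusted p = 0.905). The second ITGA6 probe did not pass this test (1.91, adjusted p = 0.0738 by limma). Of 13 laminin receptor and anchoring genes tested by this contrast 2 were called, ITGB4 and ITGA6, beside 3.86% of all probes. Those not called include COL17A1 at 1.32 (adjusted p = 0.600 by limma), CD151 at 1.26 (0.600), PLEC at 0.41 (0.682) and DST at 0.22 (0.737). In HCC827 COL17A1 changed by -1.47 (adjusted p = 0.0618 by limma), LAMB3 by 0.74 and ITGB4 by 1.07, none of them called. With at most 3 replicates, no group was tested for a sample far from the others. A549 mock replicate 3 and TRIM58-WT replicate 1 differed from replicates of their own groups by the SD over probes given in the report. Those pairs of arrays lay on different slides, as did mock arrays 1-1 and 1-2, which differed by an SD of 0.29.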

How the results depend on the processing

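Counted over all 14 probes of the 9 genes, the calls in A549 were 2 with all replicates and 0 to 2 with a replicate left out. They were 1 with normexp, 1 with no filter on dim probes, 1 with TRIM58-WT replicates 2 and 3 averaged and 0 with the methods' t-test. That test gave 2 genes, by their brightest probes, at an unadjusted p under 0.05. The contrast of the lines called 1 probe, and 2 with normexp, 0 with no filter, 3 with mock arrays 1-1 and 1-2 kept separate and 0 to 2 with a replicate left out. The count was 0 in HCC827 under all alternatives run, and 4 probes were called between the mock cells, with 3 to 5 across alternatives. LAMB3 in A549 ranged from -2.15 to -1.58 over 18 alternatives and was called in 10, and NID2 from -4.44 to -3.06 and was called in 15. The cause was not tested. The sign turned for LAMA5 in A549 with the median scaling (-0.25) and normexp (-0.066), for LAMC1 in A549 with the median scaling (-0.14), and for LAMB2 in A549 with quantile normalization (0.010), slide as a block (0.034), TRIM58-WT replicates 2 and 3 averaged (0.12) and replicates left out (-0.32 to 0.19). The contrast of LAMC1 ran from -0.057 to 0.22 with a replicate left out.

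Deviations from the group means were correlated over probes between same-numbered mock and TRIM58-WT replicates, at 0.50, -0.42 and 0.50 in A549 and 0.077 in HCC827. Not every A549 replicate correlated best with its own number. With so few replicates the deviations of a group cancel each other, so this check cannot decide whether the numbers pair the samples. With the number as a replicate block 2 probes of these genes were called in A549 and 0 in HCC827. NID1 and LAMA4, and NID2 in HCC827, lay too near background for a change to be measured.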
